A study of Mus musculus with 13 samples.

Results

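*Nnt* and 9 other genes that keep mitochondria reduced were followed through RNA sequencing of aortic endothelial cells (ECs) and whole hearts of *Hmox2*-/- mice and their *Hmox2*+/+ littermates. The 10 members are *Nnt*, *Idh2*, *Sod2*, *Prdx3*, *Prdx5*, *Txn2*, *Txnrd2*, *Glrx2*, *Glud1* and *Gpx4*, out of 36109 genes with values. They were chosen by name with earlier results of these data known. *Nnt* was taken with its KO against WT values already known, and the other 9 for their function. The *Nnt* difference between genotypes is therefore described here without a test. All 10 passed the filter on low counts in both tissues.

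The groups were ECs of *Hmox2*+/+ mice (EC WT, n = 3), ECs of *Hmox2*-/- mice (EC KO, n = 3), hearts of *Hmox2*+/+ mice (heart WT, n = 4) and hearts of *Hmox2*-/- mice (heart KO, n = 3), all kept in room air. *Hmox2* encodes heme oxygenase 2, and no tissue restriction of its deletion is named. The sequenced mice are described as young, and their sex and strain are not given in the sources used here. EC and heart samples are described as matched, but which of them come from the same mouse is not given, so libraries were treated as independent.

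Nicotinamide nucleotide transhydrogenase, the product of *Nnt*, sits in the inner mitochondrial membrane and uses the proton gradient to make NADPH from NADH. IDH2 makes NADPH in the matrix as well. NADPH keeps glutathione and thioredoxin reduced, and these in turn supply the peroxidases that remove the hydrogen peroxide made by superoxide dismutase. *Nnt* is also known as a gene that differs between mouse substrains: C57BL/6J mice, whose genome is the mouse reference, lack several of its exons, while C57BL/6N mice carry the whole gene. Reads from exons that are missing from the reference match no listed transcript, so the *Nnt* values given here count RNA over the exons that the reference holds. A C57BL/6J allele and an intact allele both have these exons.

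*Nnt* (ENSMUSG00000025453) lies on the minus strand of chr13:119470859-119566380 in GRCm39, on another chromosome than *Hmox2*. Of its 5 listed transcripts, Nnt-202 held most counts in every library, and Nnt-201 was second in heart KO. Nnt-202 has 17 exons and a coding sequence of 2505 bases. Nnt-201 has 15 exons and a coding sequence of 2163 bases, and differs from Nnt-202 by leaving out exons 8 and 9. These exons have 342 bases, or 114 whole codons, which is also the difference between both transcripts in the deposited lengths (3464 and 3122 bases). The exons and the Nnt-201 junction are shown because the transcript results turn on them. Exon 8 (chr13:119511165-119511310, 146 bases) and exon 9 (chr13:119508932-119509127, 196 bases) are given 5′ to 3′ on the minus strand, both exonic and coding. The junction shows the end of exon 7 in lower case and the start of exon 10 in capitals.
Nnt-202 exon 8: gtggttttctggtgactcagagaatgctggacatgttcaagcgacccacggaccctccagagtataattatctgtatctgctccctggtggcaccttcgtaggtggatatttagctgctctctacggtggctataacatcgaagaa
Nnt-202 exon 9: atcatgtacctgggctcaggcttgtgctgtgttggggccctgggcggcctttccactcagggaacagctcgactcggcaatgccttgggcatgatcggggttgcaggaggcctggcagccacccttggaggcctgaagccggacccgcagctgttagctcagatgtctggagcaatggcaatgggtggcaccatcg
Nnt-201 junction: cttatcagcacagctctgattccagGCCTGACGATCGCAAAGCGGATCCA
Only 28 words of 31 bases belong to Nnt-201 alone, those that span this junction. Reads that name Nnt-201 alone thus lie over 1 short stretch. Reads over exons 8 and 9 also bear on its share, as they can only go to transcripts that hold these exons.

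Libraries held 26067147 to 31619776 estimated counts, except heart WT 1 with 7268626, so values from heart WT 1 carry more counting error. *Hmox2* itself fell from 68.7 to 13.6 CPM in ECs (adjusted p = 1.31e-04) and from 39.8 to 8.08 CPM in heart (adjusted p = 1.58e-07, edgeR quasi-likelihood test). CPM are counts relative to a library size that TMM adjusted within a tissue. TPM are scaled to all transcripts of a library and corrected for transcript length, and allow levels of different genes to be compared. The Y-linked gene *Ddx3y* was at 0.88 and 0.39 TPM in EC KO 2 and EC KO 3 and at 11.5 to 22.5 TPM in the other 11 libraries. All EC WT libraries thus held Y-linked RNA while EC KO 2 and EC KO 3 held little. Sex and genotype may therefore be partly mixed in the EC comparison, and the part of sex was not tested. Mitochondrially encoded genes held 37.6% to 44.3% of counts in heart WT and 22.5% to 27.2% in heart KO. Endothelial markers (10 genes, none at 0) summed to 935 to 1797 TPM in EC WT and 1968 to 2157 TPM in EC KO, against 170 to 251 TPM in heart WT. EC libraries also held RNA of other cells, with adipocyte, smooth muscle and erythroid markers in every EC library. Brown adipocyte markers summed to 3386 to 4348 TPM in EC WT and 2515 to 3558 TPM in EC KO. White adipocyte markers summed to 3786 to 5134 and 4282 to 6130 TPM, and erythroid markers to 4730 to 9628 and 3981 to 8919 TPM. These sums exceeded the endothelial ones, so levels in EC libraries are not those of endothelial cells alone. Marker sums do not give cell shares. Smooth muscle markers summed to 1941 to 3122 TPM in EC WT and to 2235, 589 and 629 TPM in EC KO 1, 2 and 3 (2 of 5 lower). Fibroblast markers summed to 873 to 1761 TPM in EC WT and 2153 to 3003 TPM in EC KO (3 of 5 higher). Of 6 macrophage markers, 3 were higher in KO in each tissue. The part of these cells in the differences was not tested.

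*Nnt* was lower in *Hmox2*-/- mice in both tissues. In ECs its level was 21.1, 15.4 and 16.2 CPM in WT and 9.14, 7.59 and 6.36 CPM in KO. The genotypes did not overlap, and the mean of 7.70 ± 1.39 CPM (SD, n = 3) in KO was 43.8% of the mean of 17.6 ± 3.10 CPM (SD, n = 3) in WT. The fitted log2 fold change was -1.19 (SE 0.19). In heart tissue *Nnt* was 432, 544, 436 and 622 CPM in WT and 158, 189 and 222 CPM in KO. Again the genotypes did not overlap: the KO mean of 190 ± 32.3 CPM (SD, n = 3) was 37.3% of the WT mean of 508 ± 91.6 CPM (SD, n = 4), and the log2 fold change was -1.42 (SE 0.16). The difference of the log2 fold changes, heart minus EC, was -0.20 (SE 0.27), a difference smaller than its SE. Of the 31-base words of *Nnt*, 0.675% occur in other genes.

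**Figure D1:**
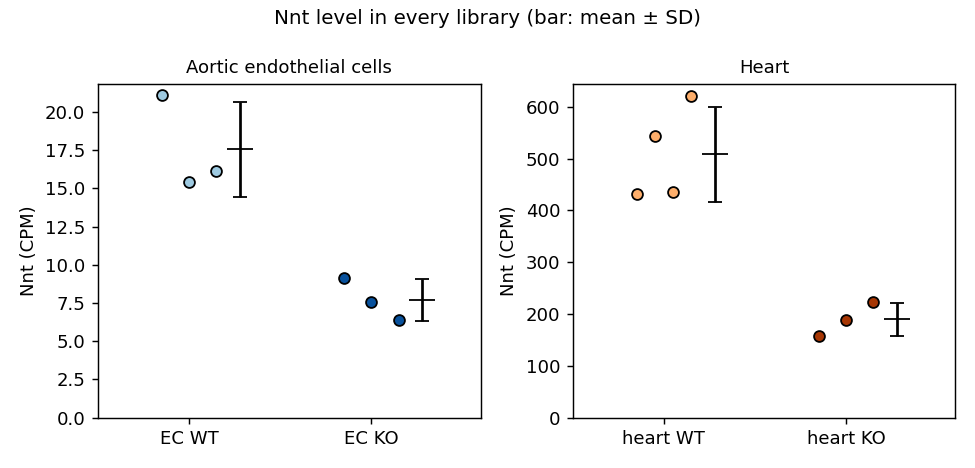
*Nnt* level in CPM (vertical axis, starting at 0) in each library of ECs (left) and heart (right), with the mean ± SD as a bar beside the points. In both tissues every KO library lies below every WT library, with KO means of 7.70 and 190 CPM against WT means of 17.6 and 508 CPM.

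On the TPM scale *Nnt* was 5.68, 5.47 and 5.83 in EC WT and 3.19, 2.27 and 2.34 in EC KO. In the heart it was 122, 170, 111 and 167 TPM in WT and 53.4, 66.3 and 84.3 TPM in KO. Genotypes stayed apart on this scale too. The bulk values cannot tell fewer cells of a type from less RNA per cell. Cardiomyocyte markers (10 genes), which mark the cell that holds most of the heart's mitochondria, summed to 139, 817 and 322 TPM in EC WT and to 8.60 to 14.1 TPM in EC KO, with 9 of 10 lower at the adjusted p threshold and 1 marker at 0 in EC KO 3. *Nnt* was 5.47 to 5.83 TPM and 15.4 to 21.1 CPM in the EC WT libraries. The part of cardiomyocyte RNA in these levels and in the EC difference was not tested. In heart tissue cardiomyocyte markers summed to 42327 to 52918 TPM in WT and 68488 to 81879 TPM in KO. They moved the other way from *Nnt*: 5 of 10 were called higher and none lower, with a median log2 fold change of 0.33. TPM is relative to all RNA, of which mitochondrially encoded genes held less in heart KO. Erythroid markers (5 genes) were higher in heart KO, at 2416 to 3506 TPM against 341 to 779 TPM, with 5 of 5 called.

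Without EC KO 2 and EC KO 3, the libraries with little *Ddx3y* RNA, the EC log2 fold change of *Nnt* was -0.94 (SE 0.27). In this fit EC KO 1 alone stood for its group. Leaving out 1 library at a time gave -1.33 to -1.04 in ECs and -1.55 to -1.31 in heart. Whether the lower level comes with the *Hmox2* deletion, with a substrain allele that 1 genotype carries, or with both cannot be told apart in this design, since no strain is given and no value here reads the exons that the reference lacks.

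The *Nnt* transcripts also differed between genotypes in the heart. Nnt-201, without exons 8 and 9, held 0.96%, 0.25%, 0% and 0% of *Nnt* counts in heart WT and 27.1%, 22.0% and 12.7% in heart KO. These shares stand for 28, 39, 0 and 0 estimated counts in WT and for 1457, 1369 and 944 in KO. Its level was 0 to 1.31 TPM in heart WT and 11.7 to 15.7 TPM in heart KO, so Nnt-201 was higher in KO hearts while the gene as a whole was lower. Nnt-202 lay at 110 to 168 TPM in heart WT and at 37.1, 49.5 and 71.1 TPM in heart KO. The shares of Nnt-202 were 98.7% to 99.6% in heart WT and 72.1%, 77.1% and 86.3% in heart KO. In ECs the counts were too few for a comparison of this kind: Nnt-201 held 0%, 16.1% and 0% in EC WT (0, 74 and 0 estimated counts) and 9.56%, 15.5% and 12.2% in EC KO (25, 31 and 21), and the genotypes overlapped. Kallisto splits reads among transcripts by likelihood, so these shares are estimates. The other 3 transcripts each held at most 0.773% of *Nnt* counts in any heart library, but up to 7.83% (Nnt-204, 14 estimated counts, EC KO 3) in ECs.

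**Figure D2:**
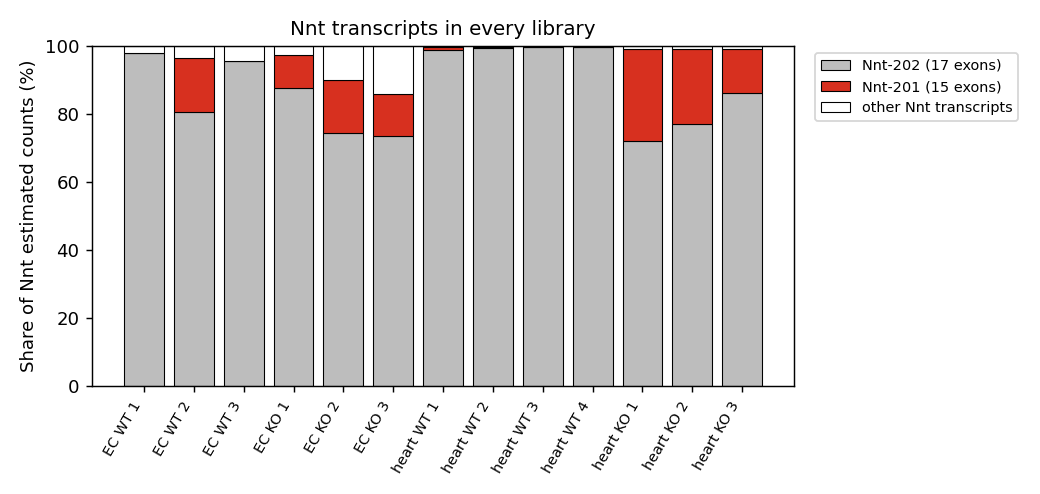
Share of *Nnt* estimated counts (%) that Kallisto gave to Nnt-202 (17 exons), Nnt-201 (15 exons) and the other 3 listed transcripts, 1 bar per library. In the heart, Nnt-201 takes 12.7% to 27.1% in KO and 0% to 0.96% in WT, and in ECs the genotypes overlap.

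The order of the 3 heart KO libraries in Nnt-201 share (KO 1, KO 2, KO 3) was also their order in a trend across all genes. Short genes were high relative to long genes in heart KO: the median deviation from the WT mean in the shortest 20% of genes minus that in the longest 20% was 1.00, 0.64 and 0.30 on the log2 scale in KO 1, KO 2 and KO 3, and -0.03 to 0.03 in heart WT. Its part in the transcript shares was not tested. For the level of the whole gene, an offset per library for length and GC content left the heart log2 fold change at -1.36 (SE 0.13) and the EC value at -1.19 (SE 0.19).

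Around *Nnt*, genes within 5 Mb on chromosome 13 showed no common direction. In ECs 2 of 21 neighbours were higher and 1 lower in KO, against 10% and 8.06% of the 15301 genes tested. *Isl1*, a homeobox factor, was among the higher (1.19, SE 0.18, adjusted p = 0.00718), and *Fgf10*, a growth factor, was lower (-2.12, SE 0.36, adjusted p = 0.0113). In heart tissue 4 of 21 were higher and 2 lower, against 17.2% and 16.2% of the 13816 genes tested. Those called were *Emb* (0.92), *Tmem267* (0.65), *Mrps30* (0.60) and *Paip1* (0.27) among the higher and *Hmgcs1* (-0.60) and *Itga1* (-0.40) among the lower, at adjusted p-values of 0.00204 to 0.0428. *Paip1*, whose annotated span overlaps the 5′ end of *Nnt* on the other strand, moved up and not down, by 0.27 (SE 0.08) in heart and, short of the threshold, by 0.35 (SE 0.11, adjusted p = 0.0643) in ECs.

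The genes whose log2 CPM followed *Nnt* most closely over the 13 libraries were *Zfp112* (Pearson r = 0.997), *Oxsr1* (0.995), *Fyco1* (0.995), *Sspn* (0.995) and *Gm8113* (0.995), among 13351 genes tested in both tissues. These are descriptions, since the 13 points share the step between EC and heart and the tissues' library types. Of the members, *Idh2* was most like *Nnt* (0.973, rank 513) and *Glud1* least (-0.75).

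Between wild-type tissues, *Nnt* was by far higher in heart than in ECs. The log2 difference was 5.61 (SE 0.23, adjusted p = 6.44e-11), with means of 142 ± 30.4 TPM (SD, n = 4) in heart and 5.66 ± 0.18 TPM (SD, n = 3) in ECs. Of the 10 members, 7 were higher and 2 lower in heart WT, against 32.1% and 33.7% of the 15938 genes tested in this comparison. *Idh2* was next, higher by 3.20 on the log2 scale (SE 0.26, adjusted p = 6.01e-08) and at 1069.3 ± 115 TPM in heart against 217 ± 63.8 TPM in ECs. *Gpx4*, which reduces lipid peroxides, was lower in heart (-0.96, SE 0.23, adjusted p = 0.00192; 414 against 1644 TPM), as was *Glud1*, glutamate dehydrogenase (-0.54, SE 0.12, adjusted p = 9.86e-04; 35.4 against 104 TPM). For *Sod2*, *Prdx3*, *Prdx5*, *Txn2* and *Glrx2* the direction depended on the scale. Their fitted log2 differences were 1.32, 0.69, 0.47, 0.39 and 0.31 after TMM normalization, while their mean TPM was lower in heart WT (262, 143, 179, 131 and 18.6) than in EC WT (328, 171, 259, 190 and 36.0). *Txnrd2* was not called (0.10, SE 0.18, adjusted p = 0.652). ECs and hearts also differed in the RNA isolation kit, so tissue and isolation cannot be told apart.

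By TPM within a group, *Nnt* was the lowest of the 10 in ECs of both genotypes and sat between *Prdx3* and *Txn2* in heart WT, where its range overlapped those of both (143 ± 15.3 TPM and 131 ± 16.1 TPM). In heart KO it came below the range of *Txn2* (231 to 292 TPM) and overlapping *Glud1* (47.3 to 65.1 TPM). *Gpx4* was highest in ECs and *Idh2* in hearts. In heart KO, *Idh2* (1311 to 1421 TPM) and *Gpx4* (827 to 1575 TPM) overlapped, whereas in heart WT they did not.

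**Figure D3:**
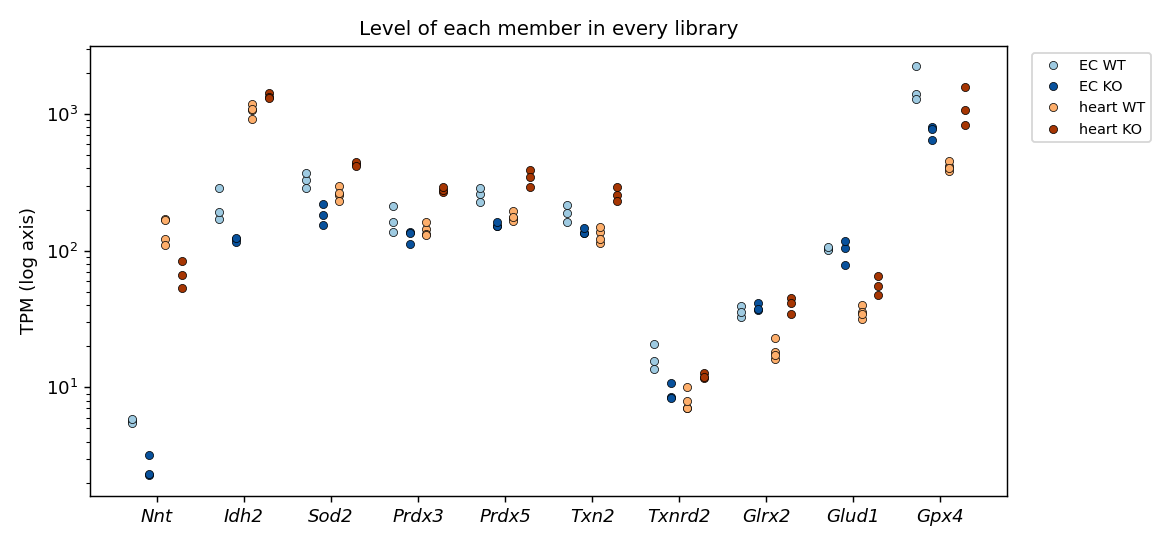
TPM of each member (log axis) in every library, coloured by group. *Nnt* and *Idh2* stand far higher in hearts than in ECs, *Nnt* is lower in KO in both tissues, and *Gpx4* is lower in KO in ECs (645 to 808 against 1294 to 2236 TPM) and higher in KO in hearts (827 to 1575 against 384 to 452 TPM).

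In ECs, the other members lay mostly on the side of *Nnt*. Of 9, none was called higher and 3 were called lower in KO (*Prdx5*, *Txnrd2* and *Gpx4*; edgeR quasi-likelihood test, adjusted p of at most 0.05), against 10% and 8.06% of all genes tested. The median log2 fold change of the 9 was -0.53, against -0.02 for all genes, and 8 of 9 had a negative sign. None was also changed by 1 or more on the log2 scale, as 9.28% of genes were. The 3 calls were not firm: none of the 9 was called when EC WT 1, EC WT 2, EC KO 1, EC KO 2 or EC KO 3 was left out, and 4 were called without EC WT 3. Calls over all genes fell in those fits too. They went from 1532 higher and 1234 lower to between 375 and 263 (without EC KO 3) and 920 and 745 (without EC WT 2). Leaving out 1 library kept *Gpx4* at -1.18 to -0.77, *Prdx5* at -0.80 to -0.53 and *Txnrd2* at -1.01 to -0.65. The members called also changed with the method: *Txnrd2* lost its call with upper-quartile normalization (adjusted p = 0.0540) and with length-scaled TPM (adjusted p = 0.0632), *Glrx2* was called higher with upper-quartile normalization (0.42, adjusted p = 0.0416), and *Idh2* was called lower with DESeq2 (-0.90, adjusted p = 0.0134).

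*Gpx4* was 1117, 1396 and 778 CPM in EC WT and 565, 650 and 457 CPM in EC KO. Every KO library was below every WT library, and the log2 difference was -0.98 (SE 0.25, adjusted p = 0.0377). It has 38.99% of its 31-base words in common with other genes, chiefly pseudogenes and a predicted gene, which themselves held at most 0.249% of its counts. *Txnrd2*, the reductase that recharges mitochondrial thioredoxin, was 22.0, 25.4 and 15.4 CPM in EC WT and 10.6, 14.98 and 10.2 CPM in EC KO. The lowest WT and the highest KO library were close to each other, and the difference was -0.81 (SE 0.23, adjusted p = 0.0463). *Prdx5*, a peroxiredoxin of mitochondria and peroxisomes, was 296, 264 and 200 CPM in EC WT and 148, 176 and 159 CPM in EC KO (-0.66, SE 0.17, adjusted p = 0.0376). Its libraries did not overlap between genotypes either, and it shares 27.4% of its words with other genes, chiefly the neighbour *Trmt112*.

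*Idh2* was 515, 234 and 252 CPM in EC WT and 170, 194 and 174 CPM in EC KO. The WT mean rested largely on EC WT 1, and the difference of -0.90 (SE 0.30, adjusted p = 0.0750) became -0.44 without it. *Sod2*, the manganese superoxide dismutase of the matrix (-0.53, adjusted p = 0.156), *Txn2*, mitochondrial thioredoxin (-0.44, adjusted p = 0.117), *Prdx3*, the main peroxiredoxin of the matrix (-0.40, adjusted p = 0.236), and *Glud1* (-0.09, adjusted p = 0.725) did not pass. *Glrx2*, mitochondrial glutaredoxin, was the only member with a positive sign (0.35, adjusted p = 0.0793), at 27.8, 28.2 and 23.3 CPM in WT and 35.8, 33.3 and 31.9 CPM in KO.

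In the heart, the other members lay on the opposite side from *Nnt*. Of 9, 6 were called higher and none lower in KO, against 17.2% and 16.2% of all genes tested, and all 9 had a positive sign, with a median of 0.33 against -0.01 for all genes. One, *Gpx4*, was also changed by 1 or more on the log2 scale, as 6.71% of genes were. The count was 4 to 6 when each library was left out in turn.

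*Gpx4* was 334, 328, 341 and 344 CPM in heart WT and 1026, 694 and 500 CPM in heart KO, a rise of 1.14 on the log2 scale (SE 0.19, adjusted p = 0.00165). The WT libraries lay within a narrow range and every KO library was well above it. *Prdx3* was 205, 208, 207 and 192 CPM in WT and 327, 323 and 310 CPM in KO (0.66, SE 0.09, adjusted p = 4.38e-04). Here the KO libraries were close to each other, and none was near the WT range. *Txn2* was 159, 159, 148 and 147 CPM in WT and 290, 244 and 207 CPM in KO (0.69, SE 0.12, adjusted p = 0.00184). *Prdx5* was 205, 205, 209 and 218 CPM in WT and 357, 316 and 247 CPM in KO (0.55, SE 0.12, adjusted p = 0.00625). *Gpx4*, *Txn2* and *Prdx5* all had their KO libraries in the order KO 1, KO 2, KO 3 from high to low, and those of *Prdx3* lay in the same order over a narrower range.

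Smaller rises were called for *Glrx2* (0.33, SE 0.11, adjusted p = 0.0331), at 17.3 to 21.3 CPM in WT and 23.1 to 25.7 CPM in KO, and for *Glud1* (0.29, SE 0.09, adjusted p = 0.0258), at 107 to 120 CPM in WT and 132 to 142 CPM in KO. Each kept its call in 3 of 7 leave-one-out fits and lost it in those without WT 1, WT 4, KO 1 or KO 2 for *Glrx2* and without WT 1, WT 2, WT 3 or KO 2 for *Glud1*, which shares 27.8% of its words with other genes. *Idh2* (0.04, SE 0.10, adjusted p = 0.774), *Sod2* (0.08, SE 0.09, adjusted p = 0.491) and *Txnrd2* (0.15, SE 0.12, adjusted p = 0.338) did not pass. *Idh2*, the other large source of matrix NADPH beside *Nnt*, was 1709 to 1934 CPM in heart WT and 1679 to 2069 CPM in heart KO, so the genotypes overlapped on this scale. On the TPM scale *Idh2* was 915 to 1195 in WT and 1311 to 1421 in KO, *Sod2* 230 to 298 and 415 to 446, and *Txnrd2* 7.10 to 10.1 and 11.7 to 12.8. This scale is relative to all RNA with mitochondrially encoded transcripts included. Those held 37.6% to 44.3% of counts in heart WT and 22.5% to 27.2% in heart KO. How many of all genes lay apart by genotype on this scale was not counted, so these ranges are not a result about the 3 members. With counts made from length-scaled TPM, *Sod2* was called higher (0.39, adjusted p = 0.01497). *Sod2* shares 22.2% of its words with other genes, chiefly *Rps6ka2*.

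**Figure D4:**
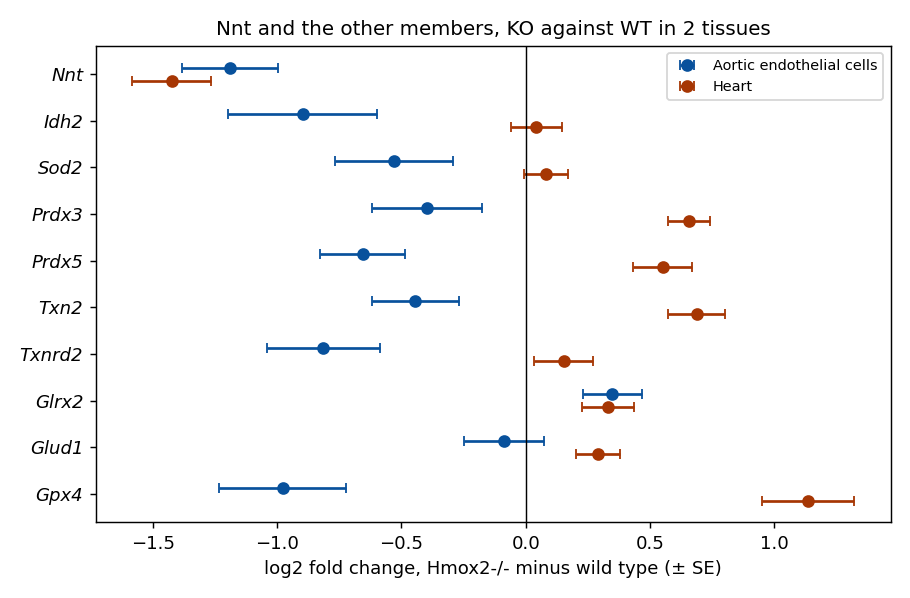
Log2 fold change of KO against WT (horizontal axis, ± SE) for *Nnt* and the other 9 members in ECs and in heart. *Nnt* is negative in both tissues (-1.19 and -1.42), and 8 of the other 9 are negative in ECs while all 9 are positive in heart.

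Most members are short genes, whether called in heart KO or not. Among the genes tested in heart, *Gpx4* lies at percentile 6.75 of length, *Glrx2* at 8.72, *Prdx5* at 13.3, *Txn2* at 14.2 and *Prdx3* at 19.9, whereas *Glud1* lies at 59.5 and *Nnt* at 67.1. The 3 members that were not called lie at 22.3 (*Txnrd2*), 23.7 (*Sod2*) and 26.7 (*Idh2*). With the offset for length and GC content, the rise was 0.65 for *Gpx4*, 0.49 for *Prdx3*, 0.33 for *Txn2* and 0.33 for *Glud1*, and these 4 were still called. *Prdx5* (0.20, adjusted p = 0.0592) and *Glrx2* (0.05, adjusted p = 0.723) were not, and *Idh2*, *Sod2* and *Txnrd2* turned negative without being called. In ECs the same offset left 1 call, *Glrx2* higher (0.41, adjusted p = 0.0325). There the GC trend stood out: the 20% of genes with the lowest GC content were above the 20% with the highest by 0.33 to 0.48 in EC KO and by -0.04 to 0.03 in EC WT. Among the genes tested in ECs, *Gpx4* lies at percentile 92.3 of GC content, *Prdx5* at 86.5, *Idh2* at 84.1 and *Txnrd2* at 80.5. *Txn2* lies at 68.2, *Sod2* at 48.1, *Nnt* at 46.1, *Glud1* at 42.3, *Prdx3* at 28.7 and *Glrx2* at 21.7. How much of each member's difference goes with these trends beyond the offset was not tested.

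**Figure D5:**
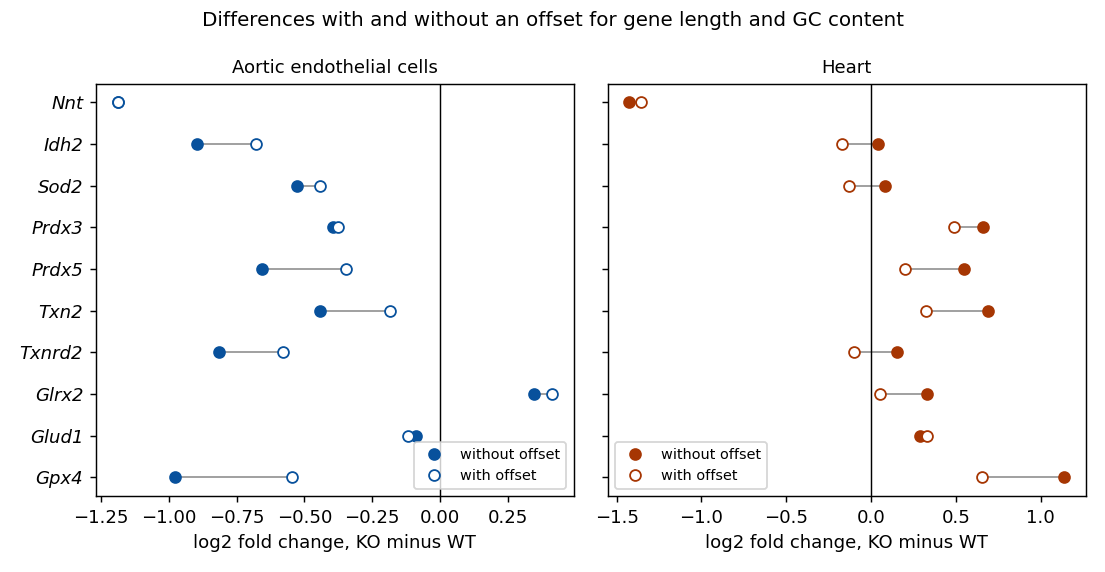
Log2 fold change of KO against WT for each member in ECs (left) and heart (right), without (filled) and with (open) an offset per library for gene length and GC content. *Nnt* moves least in relation to its size (to -1.19 and -1.36), whereas *Gpx4* moves from -0.98 to -0.55 in ECs and from 1.14 to 0.65 in heart.

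The genotype difference itself differed between tissues for most members. In the fit of all 13 libraries with a tissue by genotype interaction, the signed log2 fold change of 6 of 9 was called higher in heart than in ECs and of none lower, against 16.2% and 12.7% of the 15938 genes tested. The difference was 2.15 for *Gpx4* (SE 0.34, adjusted p = 7.42e-04), 1.24 for *Prdx5* (SE 0.21, adjusted p = 0.00127), 1.17 for *Txn2* (SE 0.21, adjusted p = 0.00184) and 1.09 for *Prdx3* (SE 0.23, adjusted p = 0.00422). It was smaller for *Txnrd2* (1.01, SE 0.26, adjusted p = 0.0106) and *Idh2* (0.98, SE 0.33, adjusted p = 0.0393). *Gpx4*, *Prdx5*, *Txn2* and *Prdx3* were called in all 7 other settings and all 13 leave-one-out fits, *Txnrd2* in all of these but the length and GC offset, and *Idh2* in 3 of the 7 and 3 of the 13. *Sod2* (0.65, adjusted p = 0.0680), *Glud1* (0.42, adjusted p = 0.0837) and *Glrx2* (0.03, adjusted p = 0.927) were not called.

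*Gpx4* differed in its transcripts as well, which was seen after its values were known. Gpx4-207 held 29.2%, 24.1% and 24.6% of *Gpx4* counts in EC WT and 0.74%, 0.67% and 0.59% in EC KO. Its level was 514, 689 and 405 TPM in EC WT and 5.32 to 8.35 TPM in EC KO, a far larger difference than that of Gpx4-202, which was 880, 1541 and 883 TPM in EC WT and 796, 764 and 637 TPM in EC KO. In heart tissue Gpx4-207 held 9.75% to 14.3% in WT and 28.8%, 17.4% and 14.6% in KO. The share thus lay lower in KO in ECs and higher in KO in heart. Other transcripts, seen afterwards, did so too. Prdx5-203 held 4.07% to 6.797% in EC WT and 0.204% to 0.706% in EC KO. In heart it held 0% to 3.57% in WT and 3.43% to 10.2% in KO, which overlapped. Sod2-207 held 42.3% to 45.8% in EC WT and 37.2% to 38.6% in EC KO. In heart it held 20.9% to 27.95% in WT and 30.5% to 37.7% in KO. Glrx2-202 lay on the same sides, while genotypes overlapped for Txn2-206 and Glud1-202 in both tissues. The part of the length trend was not tested. These shares are likelihood estimates too.

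The pathway around the members was read from lists of other genes. The counts called in each list stand against 10% higher and 8.06% lower of all genes tested in ECs, and 17.2% higher and 16.2% lower in heart. Values with the length and GC offset were read for the members only, not for these lists. The part of the length and GC trends in the list counts was therefore not tested. Among other mitochondrial NADPH sources (6 genes), ECs had 1 lower and none higher, *Me3*, mitochondrial malic enzyme (-0.93, SE 0.24, adjusted p = 0.0357). The heart had 1 higher, *Me3* (0.34, SE 0.09, adjusted p = 0.0153), and 1 lower, *Aldh1l2*, a mitochondrial folate enzyme that makes NADPH (-1.10, SE 0.22, adjusted p = 0.00413). The list medians were -0.20 in ECs and 0.05 in heart.

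In the glutathione system (12 genes) 1 was higher and 1 lower in EC KO, which is near the share of all genes. *Gclm*, the modifier subunit of the enzyme that starts glutathione synthesis, was higher (0.87, SE 0.13, adjusted p = 0.00786), and *Gsr*, glutathione reductase, which spends NADPH to recharge glutathione, was lower (-0.83, SE 0.15, adjusted p = 0.0131). In heart KO 8 of 12 were higher and 2 lower, against 17.2% and 16.2% of all genes. *Gpx1*, the abundant glutathione peroxidase (1.09, SE 0.15, adjusted p = 7.31e-04), *Mgst1*, a membrane glutathione transferase (0.96, SE 0.11, adjusted p = 1.81e-04), and *Slc25a39*, the mitochondrial glutathione importer (0.79, SE 0.10, adjusted p = 4.65e-04), were among the higher. *Gsr* was lower in heart too (-0.70, SE 0.11, adjusted p = 0.00157), at 14.3 ± 1.03 CPM in KO (SD, n = 3) against 23.3 ± 2.30 CPM in WT (SD, n = 4), so it shared its direction with *Nnt* in both tissues. List medians were -0.26 in ECs and 0.59 in heart.

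Of the other mitochondrial thiol and peroxide defence genes (10), 1 was lower in EC KO, the deacetylase *Sirt3* (-0.82, SE 0.18, adjusted p = 0.0234). In heart KO 6 were higher and 1 lower. *Hagh*, the glyoxalase that releases glutathione (1.49, SE 0.12, adjusted p = 1.39e-05), the uncoupling protein gene *Ucp2* (0.96, SE 0.13, adjusted p = 5.74e-04) and *Srxn1*, sulfiredoxin (0.79, SE 0.13, adjusted p = 0.00150), were higher, and *Ucp3*, whose product is related to that of *Ucp2*, was lower (-1.20, SE 0.35, adjusted p = 0.0226). The medians were -0.34 and 0.51.

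Counterparts outside mitochondria (15 genes) had 1 higher and 2 lower in EC KO. *Prdx4*, the peroxiredoxin of the endoplasmic reticulum, was higher (0.69, SE 0.20, adjusted p = 0.0495), and *Glrx*, cytosolic glutaredoxin (-0.96, SE 0.17, adjusted p = 0.0125), and *Sod1*, cytosolic superoxide dismutase (-0.64, SE 0.18, adjusted p = 0.0449), were lower. In heart KO 9 were higher and none lower, among them *Prdx2* (0.81, SE 0.11, adjusted p = 5.16e-04) and *Sod3*, the secreted dismutase (0.74, SE 0.15, adjusted p = 0.00422). Medians were -0.29 and 0.39, so the genes outside mitochondria lay on the same sides as the members.

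Genes read as a measure of mitochondrial content (10 tested of 11) had 2 lower and none higher in EC KO, the inner membrane prohibitin *Phb2* (-0.68, SE 0.14, adjusted p = 0.0212) and the outer membrane channel *Vdac1* (-0.53, SE 0.13, adjusted p = 0.0322), with a median of -0.36. In heart KO 5 were higher and none lower, with a median of 0.25. Neither *Vdac1* (0.12, adjusted p = 0.322) nor *Cs*, citrate synthase (0.01, adjusted p = 0.956), passed in heart.

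Promoters of 9 members were found in RefSeq (GRCm38.p6, windows of 300 bases around each annotated start), and *Nnt* had no entry. They were searched on both strands for TGACNNNGC, the core of the antioxidant response element, and for CCGGAAG, a core bound by ETS factors, both picked after the values were known. TGACNNNGC was in none of the 9, against 13.99% of 27025 genes. CCGGAAG was in 3 (*Prdx5*, *Txn2* and *Glud1*), against 9.93%. A core of the NRF1 site with any base allowed at 1 position, searched in the same way, was in 1 (*Gpx4*), against 5.19%. The 3 genes with CCGGAAG were among the 6 of 9 members called higher in heart KO. As most members were called and the motif was picked late, this overlap says nothing about the motif. The promoters of *Prdx5* (chr19:6910057-6910356, minus strand) and *Txn2* (chr15:77928945-77929244, minus strand) are shown 5′ to 3′, as those of the 2 whose rise was larger, with the motif letters in capitals.
Prdx5 promoter: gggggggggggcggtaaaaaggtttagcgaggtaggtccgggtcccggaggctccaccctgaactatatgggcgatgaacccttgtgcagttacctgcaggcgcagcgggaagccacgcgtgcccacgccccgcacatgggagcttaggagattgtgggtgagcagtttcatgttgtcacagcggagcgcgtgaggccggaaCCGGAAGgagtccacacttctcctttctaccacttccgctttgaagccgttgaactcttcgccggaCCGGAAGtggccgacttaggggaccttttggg
Txn2 promoter: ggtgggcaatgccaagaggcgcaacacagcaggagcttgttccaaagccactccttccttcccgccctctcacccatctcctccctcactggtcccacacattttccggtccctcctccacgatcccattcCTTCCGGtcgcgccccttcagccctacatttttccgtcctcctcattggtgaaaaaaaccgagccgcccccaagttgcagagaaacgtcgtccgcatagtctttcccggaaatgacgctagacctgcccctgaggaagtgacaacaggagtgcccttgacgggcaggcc
A match is a description of letters, not a bound site, and no match says only that the letters are not in this window.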

How the data were processed

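Poly(A) RNA was selected with oligo-dT. The authors pseudoaligned reads with kallisto 0.44.0 (version per the labels) and deposited estimated counts and TPM per transcript for each library. The index was GENCODE M32 by the methods, while the submitters' notes name mm10 and a human build. Of 118489 listed transcripts, 97.2% were matched to GENCODE M39 (GRCm39) by identifier without version, and 0.755% to 1.01% of counts were not matched. Estimated counts were summed per gene, rounded, filtered (filterByExpr, minimum count 10), TMM-normalized and tested with edgeR 4.0.16 (quasi-likelihood F-test, R 4.3.3), with Benjamini-Hochberg adjustment over all genes and a threshold of 0.05. EC and heart were fitted separately, and all 13 libraries together for the interaction and the wild-type tissues. Strand was not used in counting, so overlapping genes on opposite strands can share reads. Steps were tested on simulated data. Alternatives were DESeq2 1.42.0, other normalizations and filters, length-scaled TPM, a length and GC offset, a replicate block and leaving out libraries, with the fit without EC KO 2 and EC KO 3 added after the data were seen. The members, the gene lists and the tests were chosen with earlier results of these data known. Named pathway genes were those called with a log2 difference of 0.5 or more in either direction, at most 10 per tissue by size, beside the members, called neighbours of *Nnt* within 5 Mb and the 5 genes most correlated with it. Values named outside this rule (other markers, *Cs*, *Me3* and *Gsr* in heart, *Vdac1* in heart, *Paip1* in ECs) were chosen after they were seen. The labels only number the libraries of a group, so p-values measure the spread between these libraries. Figures used matplotlib 3.10.9. One gene that the rule for neighbours of *Nnt* names is not reported here.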

Additional observations from a re-analysis of the deposited data

Results flagged for a closer look

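For 6 members the signed KO against WT log2 fold change was higher in heart than in ECs by the test of the difference itself. The fitted values were negative in ECs and positive in heart. In heart those of *Idh2* (0.04, SE 0.10) and *Txnrd2* (0.15, SE 0.12) were not called. In ECs those of *Idh2*, *Prdx3* and *Txn2* were not called. The difference for *Idh2* was called in only 3 of 7 other settings and 3 of 13 leave-one-out fits. The heart minus EC difference of the log2 fold changes was 2.15 for *Gpx4*, 1.24 for *Prdx5*, 1.17 for *Txn2*, 1.09 for *Prdx3*, 1.01 for *Txnrd2* and 0.98 for *Idh2*.

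One value lay apart from its group: the share of Nnt-202 in heart WT 1 was 98.7% of *Nnt* counts, the lowest of 4 heart WT libraries. Heart WT 1 is also the library with the fewest counts (7268626). In all, 24 values were tested this way, and chance alone singles out about 1 in 20.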

How the results depend on the processing

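*Nnt* kept its direction in both tissues under every alternative run, at -1.33 to -0.94 in ECs and -1.55 to -1.31 in heart. Its EC value moved most without EC KO 2 and EC KO 3 (-0.94), an alternative chosen after seeing the data. Of the other 9 members, the 3 called in ECs became 0 with the fold change criterion, 0 without EC KO 2 and EC KO 3, 1 with the length and GC offset and 6 with all 13 libraries in 1 fit, and 0 to 4 when each library was left out. The 6 called in heart became 1 with the fold change criterion, and 4 to 6 when each library was left out. For the interaction the count was 5 to 8 and for the wild-type tissues 6 to 9 in the leave-one-out fits. DESeq2 called 2090 genes higher and 1943 lower in ECs. With upper-quartile normalization the calls in ECs were 1864 higher and 1011 lower (1532 and 1234 with TMM), and the interaction had 2115 higher and 2485 lower (2579 and 2017).

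The sign turned, with neither value called, in these cases: with the length and GC offset, *Idh2* (-0.17), *Sod2* (-0.13) and *Txnrd2* (-0.10) in heart and *Glrx2* in the interaction (-0.28); with upper-quartile normalization, *Glrx2* in the interaction (-0.075) and *Txnrd2* between wild-type tissues (-0.047); with length-scaled TPM, *Txnrd2* between wild-type tissues (-0.052). Leaving out 1 library turned *Glud1* in ECs (-0.17 to 0.056), *Idh2* in heart (-0.032 to 0.12), *Glrx2* in the interaction (-0.025 to 0.11) and *Txnrd2* between wild-type tissues (-0.083 to 0.26). The cause was not tested.

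Deviations of same-numbered libraries of both genotypes had correlations of 0.22, 0.08 and 0.06 in ECs and -0.08, 0.12 and 0.06 in heart. Differently numbered libraries had -0.24 to 0.17 in ECs and -0.17 to 0.08 in heart. With so few libraries these values cannot tell whether the numbers mark pairs. With the replicate number as a block, the EC count was 3, the heart count 4 (without *Glrx2* and *Glud1*), the interaction count 5 (without *Idh2*), the *Nnt* values were -1.19 and -1.32, and *Glrx2* in the interaction was -0.0017. The EC values of low genes such as *Nnt* transcripts rest on few counts.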
